A study of Homo sapiens with 6 samples.

Results

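Cytosolic ribosomal proteins are the protein parts of the ribosome outside mitochondria, and their genes are described here in 6 RNA-seq libraries. The genes were chosen by symbol alone: Rpl or Rps followed by a number and at most 1 of the letters a, x or l, together with Rpsa, Rplp0, Rplp1 and Rplp2, without kinases or pseudogenes. The rule took 83 of the 38986 gene symbols in the deposited count tables, 51 of the large subunit and 32 of the small subunit. After a filter on low counts, 79 of them could be tested, 48 and 31 by subunit. Rpl10l, Rpl39l, Rpl3l and Rps4l did not pass it.

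A ribosome joins a small subunit, which reads the mRNA, to a large subunit, which forms the peptide bond, and almost every ribosomal protein is present once in each particle. Cells make these proteins in matched amounts, and most of their mRNAs begin with a terminal oligopyrimidine tract (TOP), a run of C and T bases through which the kinase mTORC1 adjusts their translation. Free ribosomal proteins are degraded, and some of them bind the p53 regulator Mdm2.

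The study set 3 libraries of 293T cells, labelled as STAT6 overexpression, against 3 libraries labelled Mock with a wild-type genotype. Both groups are described as mCherry-positive, grown in DMEM with fetal bovine serum. 293T is a human embryonic kidney line, and STAT6 is a transcription factor of interleukin 4 and interleukin 13 signalling. The purpose given is the role of STAT6 in mitochondrial gene expression. The sources used here do not give the vector, the promoter driving STAT6 or whether the cells were 1 clone or a pool.

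Organism and targeted gene did not match between the labels and the files. The symbols are mouse symbols, and 0 of 6 human marker and target symbols looked up (TYR, PTPRC, EPCAM, KRT8, KRT18 and STAT6) were in the files. Mouse Stat6 was at 33.6 ± 1.53 CPM (SD, n = 3) where the label was STAT6 and at 94.5 ± 1.49 CPM where it was Mock, a log2 fold change of -1.49. CPM is the count of a gene scaled to a common library size with TMM factors. All 7 pigment cell markers looked up had at least 10 counts in every library. Their summed level was 16162 to 16488 CPM against 14690 to 15132 CPM. This and the other marker sums were scaled to library totals alone, without TMM factors. Fibroblast markers (4 genes) summed to 74.0 to 80.8 CPM against 5.77 to 6.64 CPM, and 5 leukocyte markers to 3.46 to 3.92 against 1.14 to 1.48. The 4 epithelial markers summed to 2.06 to 2.46 against 0.528 to 0.760, with Epcam at 0. Only 2 fibroblast, 2 leukocyte and 1 epithelial marker had at least 10 counts in every library, and Cd3e was at 0. Endothelial and erythroid markers stayed under 1 CPM in every library. These sums moved with the groups, and their part in the results was not tested. Directions below follow the labels alone, and each is stated for the libraries labelled STAT6 relative to those labelled Mock. Library totals ran from 19894773 to 29802693 counts, and a tested ribosomal protein gene held between 120 and 49436 counts in a library.

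Most ribosomal protein genes were slightly lower in the libraries labelled STAT6. Of the 79 tested, 65 were lower and 7 higher, and 7 did not pass (edgeR quasi-likelihood test, 2-sided, adjusted p under 0.05 over all 12938 genes tested). Over all genes tested the same test called 36.8% lower and 35.8% higher, 72.6% in either direction. The median log2 fold change of the members was -0.26, a level 16.5% lower, while the median over all genes tested was -0.00. Their changes were small: 49 lay between -0.2 and -0.5, 3 lay below -0.5, and 1 gene, Rps15, changed at least 2-fold. Among all genes tested 15.5% were called with a change of at least 2-fold. The standard deviation of the log2 fold changes was 0.25 over the members, 0.18 without Rps15, and 1.16 over all genes tested.

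Replicates were close enough to resolve shifts of this size. The coefficient of variation of a member's CPM within a group had a median of 1.85% in the STAT6-labelled group and 2.52% in the Mock-labelled group. The 65 genes called lower had every library labelled STAT6 below every library labelled Mock, and the 7 called higher had the reverse. Over all genes tested 37.7% were lower and 36.9% higher without overlap, 74.6% in either direction. When a change beyond 1.2-fold was required (glmTreat), 31 members were lower and 2 higher, against 20.7% and 24.2% of all genes. Nothing in the labels says that the libraries of a group are separate cultures, so the p-values reflect only how far these libraries differ, which may be technical. A bulk level cannot tell fewer cells of a type from less RNA per cell.

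**Figure D1:**
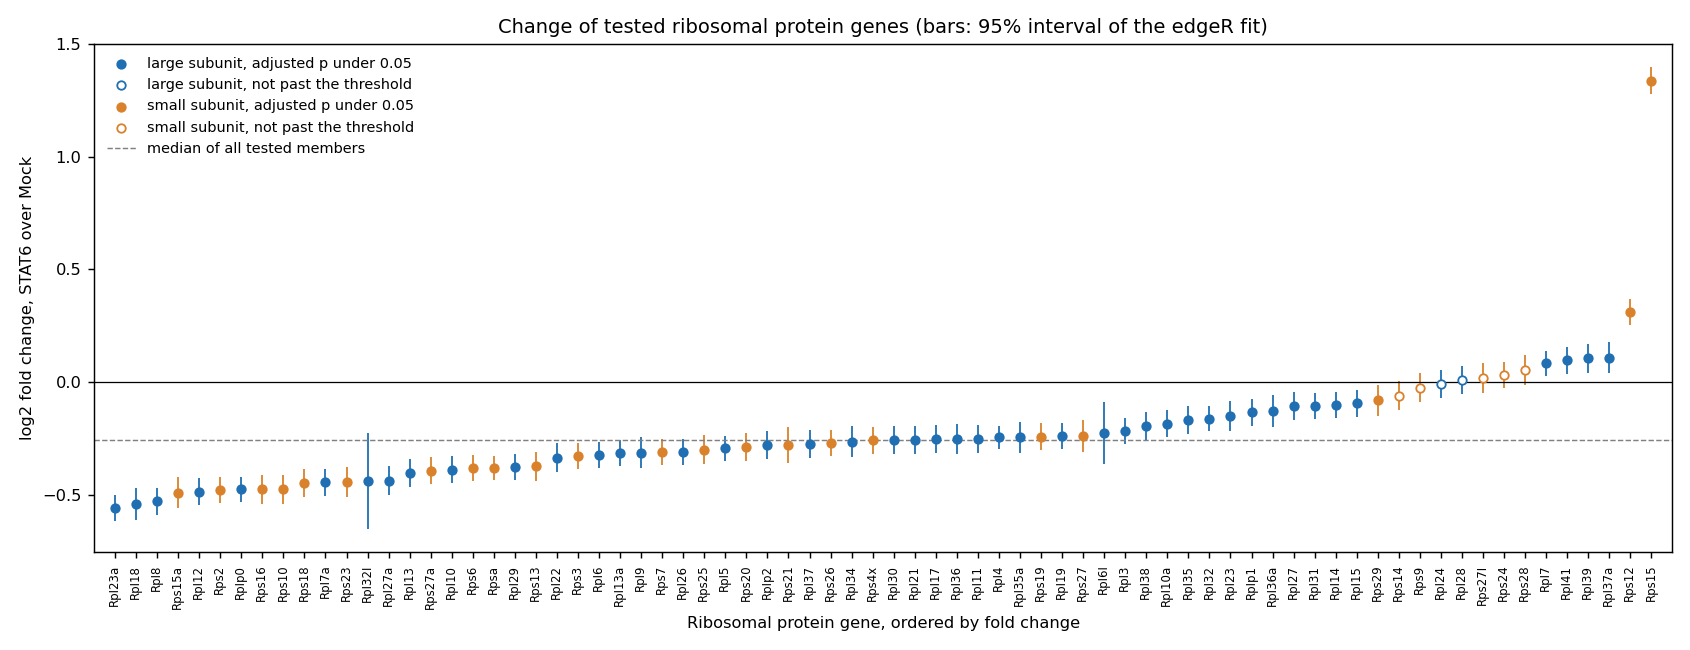
Log2 fold change of 74 of the 79 tested ribosomal protein genes (vertical axis, STAT6 over Mock) in order of size, with its 95% interval from the edgeR fit; blue is the large subunit, orange the small subunit, and open points did not pass the threshold. Most points lie near the dashed median of -0.26, and Rps15 lies alone at 1.34.

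**Figure D2:**
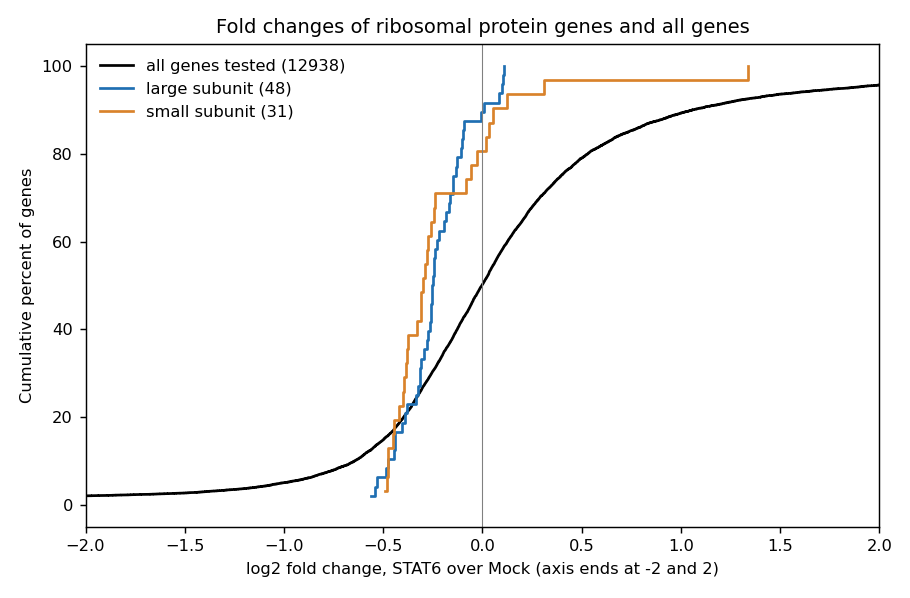
Cumulative percent of genes (vertical axis) against log2 fold change (horizontal axis, STAT6 over Mock) for all 12938 tested genes in black, 48 large-subunit genes in blue and 31 small-subunit genes in orange. Both subunit curves are steep and lie mostly left of 0, with medians of -0.25 and -0.30, and the last step of the orange curve is Rps15.

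The deepest falls were in proteins from several places in the ribosome. Rpl23a, which sits at the rim of the peptide exit tunnel, had 596, 586 and 572 CPM in the 3 libraries labelled STAT6 and 848, 854 and 885 CPM in those labelled Mock. All of the former were lower than all of the latter, and the log2 fold change was -0.56 (SE 0.03, adjusted p = 4.66e-19, edgeR). Rpl18, a large-subunit protein, had 174, 179 and 165 CPM against 257, 244.8 and 253 CPM (log2 fold change -0.54). Rpl8, which lies next to the peptidyl transferase centre, had 401, 393 and 386 CPM against 563, 554 and 586 CPM (-0.53). In both genes the groups were about as far apart as in Rpl23a, with no shared range.

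Small-subunit genes followed with similar sizes. Rps15a had 224, 217 and 207 CPM in the libraries labelled STAT6 against 312, 297 and 303 CPM (log2 fold change -0.49). Rps2, a small-subunit protein near the mRNA entry channel, had 479.6, 499.7 and 497 CPM against 679.6, 677 and 700.0 CPM (-0.48). Rps16 had 282, 283 and 264.7 CPM against 386, 379 and 391 CPM (-0.48), and Rps10 had 299.7, 285 and 283 CPM against 402, 393 and 414 CPM (-0.48). Rps16 and Rps10 belong to the head of the small subunit, and mutations of RPS10 cause Diamond-Blackfan anaemia. None of these 4 genes overlapped between groups. Rps18, a head protein that contacts the large subunit, had 247, 247 and 244 CPM against 334, 329 and 344.5 CPM (-0.45), again with no overlap.

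The stalk of the large subunit, which binds translation factors, was lower in all of its parts but unevenly. Rplp0, its base protein, had 708, 674 and 679.5 CPM in the libraries labelled STAT6 and 959.5, 939 and 971 CPM in those labelled Mock (log2 fold change -0.48, SE 0.03). Rpl12, which binds beside it, had 616, 591 and 586 CPM against 841, 819 and 854 CPM (-0.49, SE 0.03). The stalk's acidic proteins changed less. Rplp2 had 296, 287 and 285 CPM against 351, 350.0 and 354 CPM (-0.28, SE 0.03), and Rplp1 had 580.4, 554 and 555 CPM against 615, 601 and 637 CPM (-0.13, SE 0.03, adjusted p = 0.000144, edgeR). The difference between stalk genes was not itself tested.

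Rpl5 and Rpl11, which form a particle with 5S rRNA and bind Mdm2 when it is free, were both lower. Rpl5 had 820.4, 818 and 809 CPM in the libraries labelled STAT6 against 985, 982 and 1036 CPM (log2 fold change -0.30). Rpl11 had 283, 289.5 and 290.0 CPM against 341, 335 and 350.5 CPM (-0.25). Of all 79 tested members 65 were lower and 7 higher (median -0.26), and of all genes tested 36.8% and 35.8%. Of the 9 genes listed for the exit tunnel and its rim 8 fell and 1 rose (median -0.25), close to the members as a whole. Besides Rpl23a they included Rpl4 (-0.25) and Rpl17 (-0.25), which line the tunnel, and Rpl26 (-0.31), Rpl35 (-0.17), Rpl19 (-0.24) and Rpl31 (-0.11) at its opening, while Rpl39 was at 0.11.

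The lists below are to be read beside all 79 tested members, of which 65 were lower and 7 higher (median -0.26). Among all genes tested 36.8% were lower and 35.8% higher. Of 14 genes for the head of the small subunit, 10 were lower, 3 were higher and 1 did not pass, with a median of -0.29. The lower ones ran from Rps16 (-0.48) to Rps29 (-0.08, adjusted p = 0.0291, edgeR), and included Rps3 (-0.33), Rps18 (-0.45), Rps19 (-0.24), Rps20 (-0.29) and Rps27a (-0.39), which is made as a fusion with ubiquitin. Rps29 did not pass with DESeq2 (adjusted p = 0.0598), nor in edgeR when STAT6 replicate 3 (0.251), Mock replicate 1 (0.067) or Mock replicate 3 (0.0578) was left out. The head holds all 3 small-subunit genes that were called higher, among them Rps15 and Rps12. Away from the head, Rps6, the substrate of S6 kinase, had 416, 414 and 422 CPM against 553, 531.5 and 547 CPM (-0.38). Rpsa, also known as the laminin receptor, stood at -0.38 as well. Of 9 genes listed as mutated in Diamond-Blackfan anaemia 8 were lower (median -0.27), close to the members as a whole. Among the 8 were Rps7 (-0.31), Rps26 (-0.27) and Rpl35a (-0.25), and Rps24 did not pass.

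The other members called lower formed a continuous range. The larger falls were those of Rpl7a (log2 fold change -0.45), Rps23 (-0.44), which lies at the decoding centre, Rpl27a (-0.44), Rpl13 (-0.40), Rpl10 (-0.39), a late-joining protein of the large subunit, Rpl29 (-0.38) and Rps13 (-0.38). Near the middle of the range stood Rpl6 (-0.33), Rpl13a (-0.31), which has a second role in silencing inflammatory mRNAs, Rpl9 (-0.31), Rps21 (-0.28), Rpl37 (-0.27), Rpl34 (-0.27), Rpl30 (-0.26), Rps4x (-0.26), Rpl21 (-0.26), Rpl36 (-0.25) and Rpl3 (-0.22), which reaches the peptidyl transferase centre. The smallest falls were those of Rpl38 (-0.20), Rpl10a (-0.19), Rpl32 (-0.16), Rpl23 (-0.15), Rpl27 (-0.11), Rpl14 (-0.10) and Rpl15 (-0.09, adjusted p = 0.00483, edgeR). Across the 79 members the change did not follow the level: Spearman's rho with mean level was -0.05 (a description over genes that share the same libraries). Levels are not compared between genes here because no transcript lengths were used.

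Rps15, a protein of the small-subunit head near the decoding site, moved against the rest. It had 1312, 1329 and 1331 CPM in the libraries labelled STAT6 and 517.5, 503 and 550.0 CPM in those labelled Mock. The lowest value of the former was more than double the highest of the latter, and the level was 2.53-fold higher (log2 fold change 1.34, SE 0.03, adjusted p = 1.06e-29, edgeR). Rps12, also of the head, had 759, 715 and 719 CPM against 588, 577 and 603 CPM, with no overlap (log2 fold change 0.31, SE 0.03, adjusted p = 1.32e-11, edgeR). Scaled to library totals alone, Rps15 and Rps12 were still called higher, at 1.26 and 0.24.

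Rpl37a, Rpl39, Rpl41 and Rpl7, of the large subunit, were also called higher, with small changes that depended on the scaling. Rpl37a had 189, 179 and 179 CPM against 169.8, 166 and 172 CPM (log2 fold change 0.11), and Rpl39 had 355, 369.5 and 353 CPM against 340.0, 322 and 339 CPM (0.11). Rpl41, one of the shortest proteins known, had 700.2, 695 and 691 CPM against 632, 643 and 676 CPM (0.10), and Rpl7 had 1051, 1044 and 1056 CPM against 979.8, 969 and 1026 CPM (0.08). The groups did not overlap in any of these 4, but with library totals alone none of them passed (adjusted p = 0.377 to 0.8, edgeR). Rpl7 was also lost with no filter on low counts (adjusted p = 0.0615), and Rpl37a without STAT6 replicate 1 (0.0678).

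**Figure D3:**
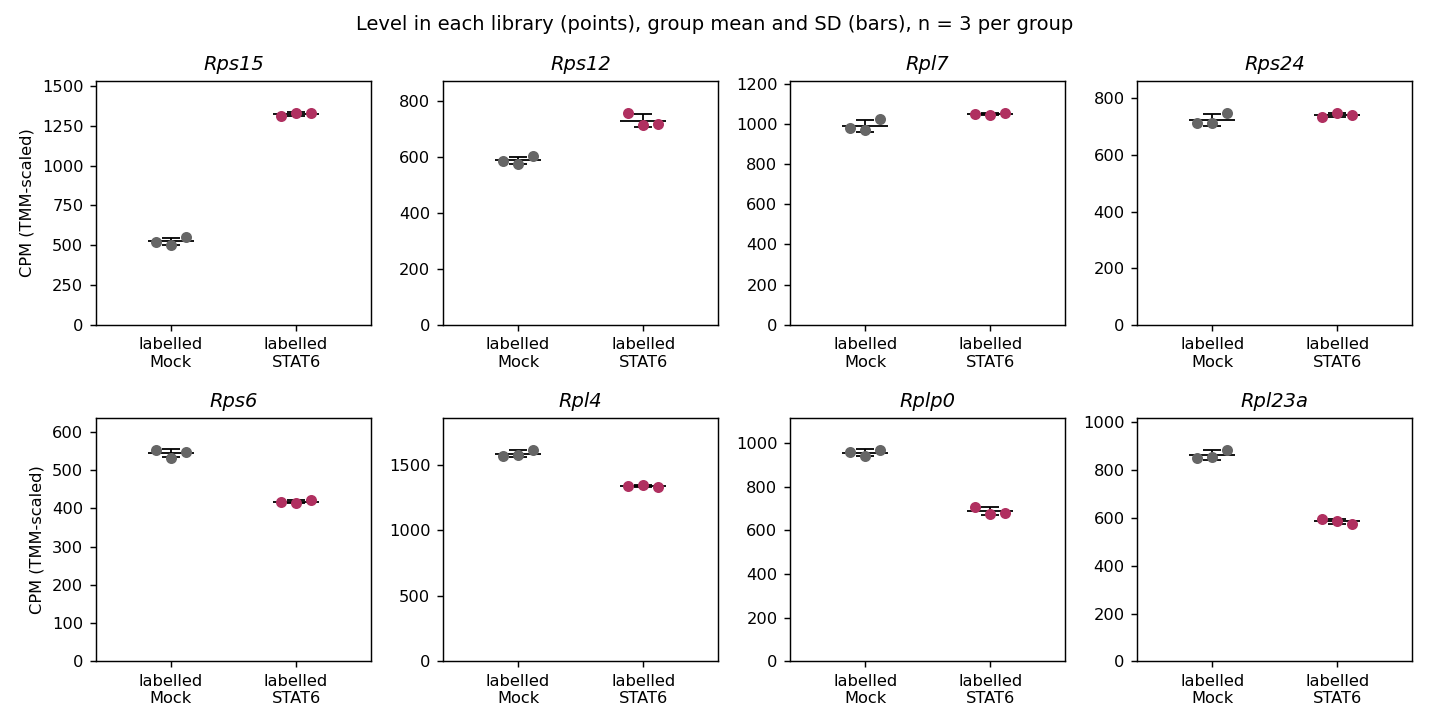
Level of 8 ribosomal protein genes in each library (points, CPM on linear axes from 0), with the group mean and SD, for the 3 libraries labelled Mock in grey and the 3 labelled STAT6 in red. Rps15 and Rps12 are higher in every red library, Rps6, Rpl4, Rplp0 and Rpl23a are lower in every red library, and Rps24 overlaps between groups.

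For 7 members the test did not pass, and their groups overlapped. The 95% intervals of their log2 fold changes were -0.13 to 0.01 for Rps14, -0.09 to 0.04 for Rps9, -0.07 to 0.05 for Rpl24, -0.05 to 0.07 for Rpl28, -0.05 to 0.08 for Rps27l, -0.03 to 0.09 for Rps24 and -0.01 to 0.12 for Rps28. The upper or lower ends of these intervals are changes of under 10%. With library totals alone Rps14 (-0.13), Rps9 (-0.10) and Rpl24 (-0.08) were called lower, and Rpl28 (-0.06), Rps27l (-0.06), Rps24 (-0.04) and Rps28 (-0.02) had negative values that did not pass.

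Mouse sequence was not used here, so the start of the transcript is shown from the human genes of the same names (RefSeq, GRCh38.p14). The 6 windows are printed because they cover members that fell, rose and did not pass. Each has 30 bases, 5′ to 3′ on the gene's strand, with the annotated transcript start at base 16, and capitals mark a run of C and T that holds a C within 5 bases of that start followed by at least 4 further C or T.
RPLP0, chr12:120201097-120201126, minus strand: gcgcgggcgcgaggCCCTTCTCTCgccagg
RPS10, chr6:34426055-34426084, minus strand: ccgcgcatgCTCCTTCCTTTCCagccccgg
RPS6, chr9:19380222-19380251, minus strand: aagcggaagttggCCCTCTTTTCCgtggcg
RPS12, chr6:132814554-132814583, plus strand: gcgtgcggatgaggCCTCTTTCCCTgccgc
RPS15, chr19:1438381-1438410, plus strand: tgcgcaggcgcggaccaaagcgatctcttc
RPS27L, chr15:63157463-63157492, minus strand: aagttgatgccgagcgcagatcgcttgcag

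The run was found at the starts of Rplp0, Rps10 and Rps6, which were lower, and equally at the start of Rps12, which was higher. It was not found within 5 bases of the annotated start of RPS15 or RPS27L. The RPS15 window does end in a run of C and T (tctcttc), which lies further downstream than the search reached. Whether that run acts as a tract was not tested. Of the 79 tested members 62 matched a human start window, and 49 of them (79.0%) held the run, against 21.1% of the 27305 gene starts in the same table. The search was on the gene's own strand, since the tract is part of the mRNA. The median log2 fold change was -0.25 for the 49 members with the run and -0.26 for the 13 without it. The 13 include RPS15, and RPS26 and RPL9, whose windows also hold a run of C and T further downstream. A member without the run near the annotated human start may therefore still have a tract. Whether the tract bears on the change was not tested. Among the members for which no start window was used were Rpl23, Rpl23a, Rpl30, Rpl32l, Rpl37, Rpl5, Rpl6l, Rpl7, Rpl8, Rps15a, Rps2 and Rps20.

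As a share of all counts, the 83 genes took less of the libraries labelled STAT6. They held 3.39%, 3.34% and 3.29% of counts there and 4.06%, 3.97% and 4.16% in the libraries labelled Mock. The groups did not overlap, and they differed by -0.73 percentage points (2-sided p = 0.1 in an exact permutation test of the libraries, which cannot go lower with 20 assignments). The large subunit held 62.4%, 62.5% and 62.4% of these counts against 63.6%, 63.9% and 63.9%, a difference of -1.36 percentage points (the same exact test, p = 0.1). This difference rested on Rps15: without it the large-subunit share was 64.8%, 65.0% and 65.0% against 64.4%, 64.7% and 64.8%, a difference of 0.30 percentage points in the other direction (the same exact test, p = 0.1). Per gene the subunits had medians of -0.25 and -0.30, with 42 of 48 large-subunit and 23 of 31 small-subunit genes lower, and whether the subunits differed was not tested.

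**Figure D4:**
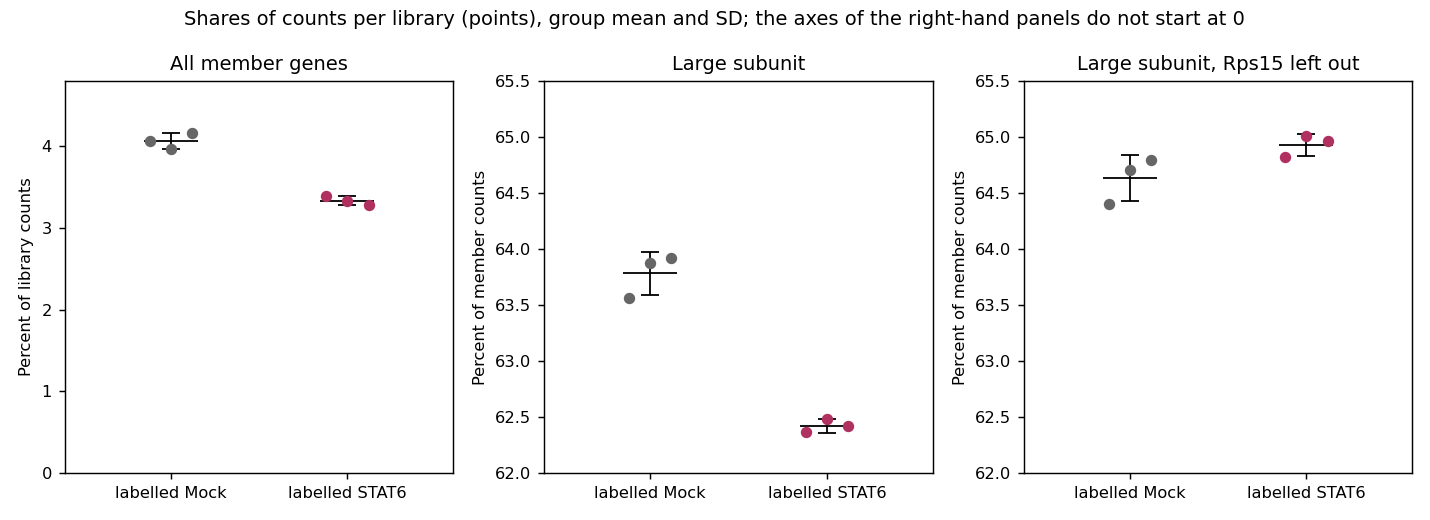
Percent of library counts held by the 83 ribosomal protein genes (left, axis from 0), and percent of those counts held by the large subunit with Rps15 (middle) and without it (right, axes not from 0), for each library (points) with group mean and SD. The total is lower in the 3 libraries labelled STAT6, and the order of the groups in the large-subunit share turns when Rps15 is left out.

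Paralogs are copies of a ribosomal protein gene that diverged after duplication, and in 3 of 4 pairs with both copies well counted the paralog's share was larger in the libraries labelled STAT6. Rps27 had 114, 118 and 113 CPM in the libraries labelled STAT6 against 136, 134 and 136 CPM (log2 fold change -0.24). Its paralog Rps27l, known as a p53 target, had 214, 210.4 and 210.0 CPM against 214, 201 and 212 CPM (0.02, not past the threshold). Rps27l made up 65.2%, 64.0% and 65.1% of the pair's counts against 61.1%, 59.9% and 60.8%. These shares are not per length and are read only between groups.

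Rpl22, an RNA-binding protein of the large subunit, had 257, 254 and 253 CPM against 318, 309 and 336 CPM (log2 fold change -0.34), while Rpl22l1 was at 0.03 (adjusted p = 0.603, edgeR). Rpl22l1, whose symbol lies outside the rule, made up 9.53% ± 0.489 of the pair in the libraries labelled Mock and 11.95% ± 0.605 in the STAT6-labelled group (SD, n = 3). Rpl36a had 130.4, 132 and 134 CPM against 141, 143 and 149 CPM (-0.13), and Rpl36al had 179, 180.0 and 176 CPM against 169, 165 and 178 CPM (0.07, adjusted p = 0.079, edgeR). The share of Rpl36al in the pair was 54.1% ± 0.569 in the Mock-labelled and 57.4% ± 0.571 in the STAT6-labelled group. For Rpl7l1, a relative of Rpl7 that acts in ribosome assembly, the share of the pair was smaller in the STAT6-labelled group, 7.18% ± 0.0643 against 9.85% ± 0.122. In each of these 4 pairs the groups did not overlap (exact permutation test, 2-sided, p = 0.1, and 0.175 adjusted over 7 pairs).

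The remaining paralogs were at or near 0. Over all 6 libraries Rpl3l, a muscle gene, had 3 counts, Rpl10l, a testis gene, 5, and Rps4l 8. Rpl39l had 0 counts, which allows a level of up to 0.0215 CPM over the 6 libraries together, for counting error only. Of the like-named Rpl32l and Rpl6l, Rpl32l had 8.21, 6.18 and 7.16 CPM against 10.5, 9.22 and 9.68 CPM (log2 fold change -0.44, SE 0.10). Rpl6l was at -0.23 (SE 0.07), and both were called lower on far fewer counts than the other members.

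Some parts of the ribosome have symbols outside the rule, among them Rps3a1 and Rack1, which were lower, and Fau, which was higher. Rps3a1, a small-subunit protein, had 722, 705 and 679.9 CPM in the libraries labelled STAT6 and 1195, 1151 and 1228 CPM in those labelled Mock (log2 fold change -0.76, SE 0.03, adjusted p = 1.38e-22, edgeR), which is a larger fall than that of any tested member. Rack1, a scaffold protein on the head of the small subunit, had 429.8, 406 and 410.1 CPM against 609, 581 and 594 CPM (-0.52). Fau, a fusion of a ubiquitin-like protein with a small-subunit protein, had 222, 215 and 220.2 CPM against 201, 196 and 212 CPM (0.11, adjusted p = 0.0043, edgeR), a call that was lost with library totals alone (adjusted p = 0.366, edgeR). With these 3 genes added the counts were 67 lower and 8 higher of 82, and the median was -0.26. Among like-named genes outside the rule, Rpl7l1 and Rps27rt were both lower, at -0.42.

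Ribosomal protein genes have many processed pseudogenes, so the split of reads between near-identical copies is uncertain. The files held 23 rows named as pseudogenes of these genes, of which 15 were tested, 9 were lower and 6 did not pass (edgeR). Together they took 0.0411% ± 0.00110 of counts in the libraries labelled STAT6 against 0.0572% ± 0.000908. The largest was Rps6-ps4, with 34435 counts beside the 68082 of Rps6 and a log2 fold change of -0.54. Adding the pseudogene rows to their parent moved the log2 ratio of the group means by at most 0.05 in any of 12 parents, and for Rps6 it went from -0.38 to -0.43. Rps15 had no such row, and Rps12 had 9, which held 1.97% of the counts of both. Pseudogenes under symbols without the -ps ending were not looked up, so these values cover the named rows only.

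Neighbouring genes were looked up in human gene order (RefSeq, GRCh38.p14), in which 77 of the 79 tested members were placed. Of the 10 tested genes nearest to Rps15, 8 were higher and 1 lower (median log2 fold change 1.03), among them Efna2 (4.48), Apc2 (4.29), Ndufs7 (1.21) and Pcsk4 (1.27) above, and Gamt (-1.07) below. Around Rpl23a 7 of 10 were lower and 1 was higher (median -0.40). Around Rpl18 2 were higher and 2 lower of 10 (median -0.08), around Rpl8 1 was higher and 2 lower of 6 (median -0.25), and around Rps15a 3 were higher and 2 lower of 10 (median 0.00). Around Rps12 6 were higher and 3 lower of 10 (median 0.34), among them Hbs1l (0.53), a ribosome rescue gene named below. Around Rpl12, itself at -0.49, 6 were higher and 1 lower of 10 (median 0.45). Over the 77 members the median of the neighbours' medians was 0.02. Spearman's rho between a member's change and the median of its neighbours was 0.26, a description that was not tested. Whether the place of Rps15 in the genome bears on its level was not tested, and the mouse gene order was not used.

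**Figure D5:**
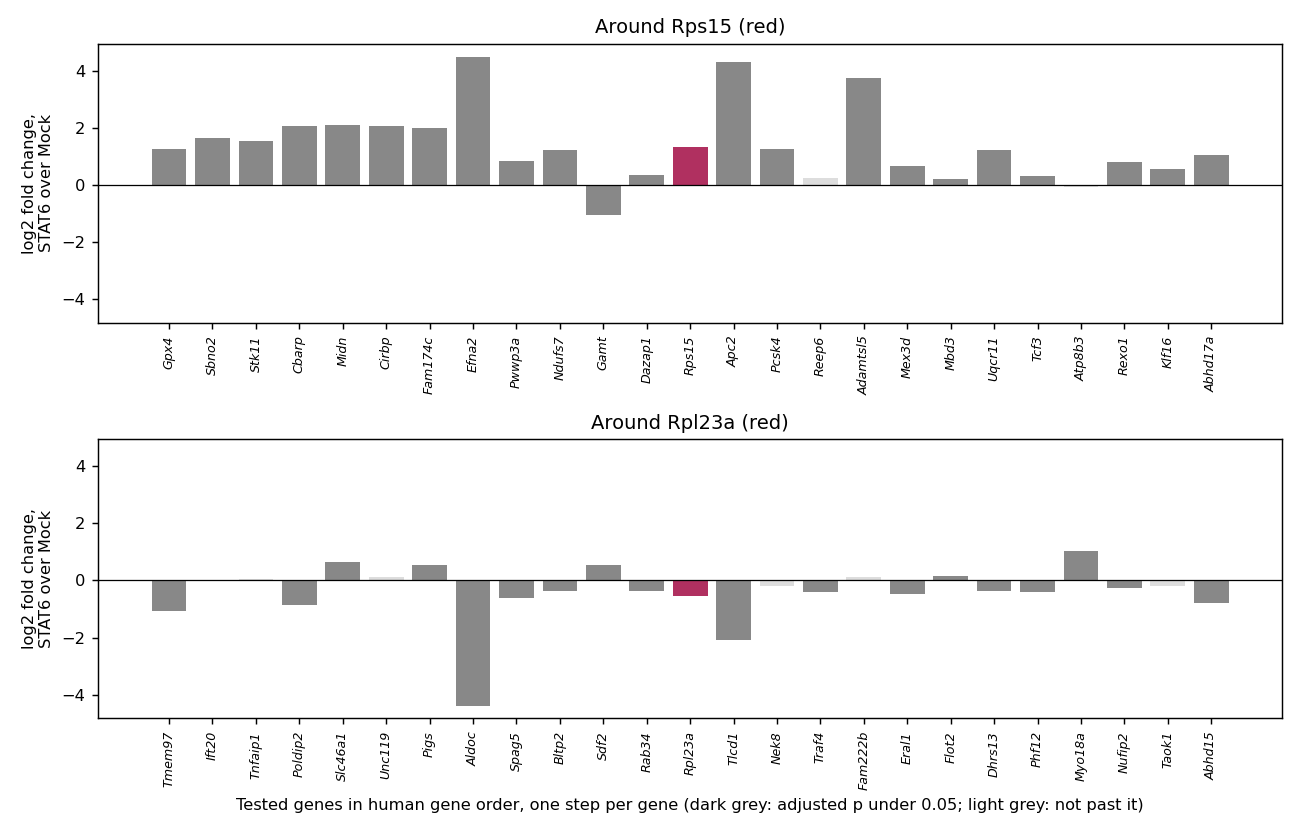
Log2 fold change (vertical axis, STAT6 over Mock) of Rps15 and Rpl23a (red) and of the 12 tested genes on either side of each in human gene order, 1 bar per gene; light grey did not pass the threshold. Most bars around Rps15 are above 0, and those around Rpl23a lie on both sides of 0.

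Other genes with TOP mRNAs and genes that serve ribosomes were taken from lists, to be read against all genes tested, of which 36.8% were lower and 35.8% higher, 72.6% in either direction, with a median log2 fold change of -0.00. Of 18 further TOP genes, 14 fell and 2 rose (median log2 fold change -0.31). They included Npm1, a nucleolar chaperone (-0.67), Eef1g, an elongation factor subunit (-0.60), and Hnrnpa1 (-0.57), against Vim, an intermediate filament gene (0.45). Noncoding hosts of small nucleolar RNAs had 4 lower and 1 higher of 7 (median -0.19), a called share near that of all genes. Snhg3 was at -0.55 and Snhg5 at -0.26, and in both the groups did not overlap. The 2 others called lower, Snhg1 (-0.19) and Snhg8 (-0.21, adjusted p = 0.0477, edgeR), overlapped between groups. Snhg1 did not pass with DESeq2 (adjusted p = 0.0722), nor in edgeR with Mock replicate 3 (0.13), STAT6 replicate 2 (0.0936) or STAT6 replicate 3 (0.164) left out. Gas5 was at 0.12, and its call was lost with library totals alone (adjusted p = 0.343, edgeR) and without STAT6 replicate 2 (0.0881) or Mock replicate 1 (0.0906).

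Regulators of TOP mRNAs had 10 lower and 2 higher of 12 (median -0.32), led by Rheb, the activator of mTORC1 (-0.67), the RNA-binding protein gene Larp4 (-0.61), Tsc1 (-0.46), which restrains Rheb, and Rptor (-0.41), the mTORC1 scaffold. Chaperones and partners of single ribosomal proteins had 7 lower of 9 (median -0.38), among them Pdcd2l (-0.62), Prmt3 (-0.54), Grwd1 (-0.45) and Nap1l1 (-0.45), and the other 2 did not pass. Late assembly factors had 3 lower and 2 higher of 7 (median -0.00), shares near those of all genes, with Mrto4 (-0.59) and the export adaptor Nmd3 (-0.36) against Zfp622 (0.65) and Sbds (0.36). Genes of ribosome rescue and quality control had 5 lower and 2 higher of 9 (median -0.24), a called share also near that of all genes, with Gcn1 (-0.42) and Abce1 (-0.28), a ribosome recycling factor, against Rnf14 (0.60) and Hbs1l (0.53). Nap1l1 is in the TOP list too.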

How the data were processed

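RNA of 6 libraries, 3 per group, was sequenced after stranded mRNA preparation, per the labels' protocols. The authors deposited 1 whole-number count per gene symbol and library. FastQC, STAR, Salmon and edgeR appear in the submitters' processing notes with no role or version, beside the human build GRCh37. The sources used here do not give read assignment, strand setting or filters. The symbols are mouse symbols. No mouse genome was used.

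Counts were tested with edgeR 4.0.16 in R 4.3.3: filterByExpr, TMM (factors 0.968 to 1.03), glmQLFit with robust = TRUE and glmQLFTest with group as the only term, Benjamini-Hochberg adjustment over 12938 genes. Values are CPM on the TMM-scaled total, except the marker sums and the upper level given for Rpl39l, which used library totals alone. Fold changes are STAT6 over Mock. Shares used exact permutation over libraries. Lists are described by counts and medians with no set test.

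Members, lists and tests were chosen with earlier results of these data known. Every member could be named, but some are not reported here. Among those reported, values in every library are given for the 6 called members with the largest rise, the 10 with the largest fall and genes of set roles; Rpl7 was added after its values were seen. Of other lists up to 4 called genes with the smallest adjusted p are named, and Snhg8 and Fau are named in addition.

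Pairs of libraries of a group differed by 1.49 to 2.63 times counting noise (median chi-square), so none was a copy. On simulated counts modelled on this comparison (12746 genes) edgeR recovered 22% of genes changed 1.1-fold, 58% at 1.2-fold, 80% at 1.5-fold and 90% at 2-fold. It called 19 of 12548 unchanged genes. Only 50 genes were changed at each fold, whereas 72.6% of all genes tested were called in the data. The rates therefore describe a set with few changed genes and may not hold for the data.

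Alternatives were DESeq2 size factors, library totals, upper-quartile scaling, members left out of totals, other filters, DESeq2 1.42.0, limma-voom (limma 3.58.1), a replicate block, each library left out, an adjusted p of 0.01 and glmTreat at 1.2-fold. Leaving out Rps15 and adding Fau, Rack1 and Rps3a1 were added after the data were seen.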

Additional observations from a re-analysis of the deposited data

How the results depend on the processing

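With no filter on low counts the median log2 fold change was -0.28 over 82 members and 0.12 over all 25386 genes tested, a difference of -0.39 where it was -0.26 with the filter. The members' median was -0.33 with library totals alone, where that of all genes was -0.08 and 2 members were called higher and 68 lower, and it ranged from -0.28 to -0.25 when each library was left out, the lowest value being that without Mock replicate 2. A change beyond 1.2-fold was called for 31 members lower and 2 higher. Of the 72 called members 66 kept direction and call under all 15 alternatives run on single genes, 64 of those lower and 2 higher. The share of counts differed by -0.80 percentage points with Fau, Rack1 and Rps3a1 added, and by -0.78 to -0.68 with each library left out. The large-subunit share of ribosomal protein counts differed by 0.30 without Rps15, and by -1.47 to -1.29 with each library left out. Signs turned, with no call, for values near 0. With library totals alone these were Rpl22l1 (-0.0402), Rpl28 (-0.0647), Rpl36al (-0.0073), Rps24 (-0.0435), Rps27l (-0.0573) and Rps28 (-0.0191), and Rpl28 also turned with upper-quartile scaling (-0.0066) and with no filter (-0.0075). With each library left out Rpl22l1 ranged from -0.0155 (without STAT6 replicate 1; also negative without Mock replicate 2) to 0.0800, Rpl24 from -0.0304 to 0.0193 (without Mock replicate 3), Rpl28 from -0.0166 (without Mock replicate 1) to 0.0213 and Rps27l from -0.0153 (without Mock replicate 2) to 0.0290. The cause of these changes was not tested. With the replicate number as a block the calls were 65 lower and 7 higher and the median -0.26, so the block changed no count. Same-numbered libraries had correlated deviations of 0.05, 0.10 and 0.03, and 5 of 6 libraries correlated best with their own number. Whether the numbers mark pairs was not tested.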
